A study of Homo sapiens with 6 samples.

Results

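Oxidative phosphorylation in A549 cells was followed through the mRNAs of the nuclear-encoded subunits of its 5 complexes. The members were chosen by symbol, as protein-coding rows named NDUFA, NDUFB, NDUFC, NDUFS or NDUFV with a number (complex I), SDHA to SDHD (complex II), UQCR (complex III), COX4 to COX8 (complex IV) and ATP5 (complex V), without hyphenated readthrough names. This gave 83 of the 29889 genes in the deposited table: 38 for complex I, 4 for complex II, 9 for complex III, 14 for complex IV and 18 for complex V. The rule used names only and no measured value. It leaves out a few true subunits with other names, such as NDUFAB1 and CYC1, and it keeps NDUFA4, which is now placed in complex IV, COX7A2L, a supercomplex assembly factor, ATP5S and ATP5SL, which are not subunits proper, and the retrocopies ATP5EP2 and UQCRHL.

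Complexes I and II pass electrons from NADH and succinate to ubiquinone, complex III hands them to cytochrome c, and complex IV, cytochrome c oxidase, reduces oxygen. Complexes I, III and IV pump protons across the inner mitochondrial membrane, and complex V, the ATP synthase, uses the gradient to make ATP. Most subunits are encoded in the nucleus, and the factors NRF1, GABP (an ETS factor) and YY1 are known to bind many of their promoters, whereas the mitochondrial genome encodes some core subunits of complexes I, III, IV and V.

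A549 is an established human lung adenocarcinoma line. The cells received the plasmid pIRES-hrGFP-1a-CELF6, which expresses the RNA-binding protein CELF6 (CELF6-OE), or the empty plasmid (Control), by lipofection, and were harvested after 48 h as 3 biological replicates per group, 6 polyadenylated RNA libraries in all. No selection or sort of transfected cells is described in the sources used here, so a library may average over cells with and without the plasmid. The comparison asks whether CELF6 over-expression moved the mRNA levels of the respiratory chain.

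CELF6 itself had 18646, 20789 and 11571 reads in the CELF6-OE libraries and 0 reads in each Control library. Library totals ranged between 33748328 and 35413404 counts for CELF6-OE and between 36422617 and 37920700 for Control, and the members together took 1.26% to 1.38% of each. All 8 epithelial markers looked up were at 1 FPKM or more, and their sum was lower with CELF6 (5063 to 5813 FPKM) than without (6192 to 7048 FPKM), whose part in the results was not tested. Of 13 leukocyte markers 1 (CD14) reached 1 FPKM, and the list summed to between 4.18 and 5.59 FPKM with CELF6 and between 4.01 and 4.63 without. No fibroblast or endothelial marker reached 1 FPKM, with sums of at most 1.03 and 0.07 FPKM in any library. In bulk RNA, fewer cells that express a gene and less of its RNA per cell cannot be told apart.

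The libraries were not equal in how they held the members. In CPM (reads of a gene per 1e6 reads of its library, scaled with edgeR's TMM factors), CELF6-OE replicate 2 was the lowest of its group for 73 of the 79 members tested (92.4%), against 35.2% of all genes tested, and CELF6-OE replicate 1 was the highest for 68 (86.1%, against 31.8%). In Control, replicate 1 was the lowest for 57 members (72.2%, against 41.8%). Among the 2242 genes tested at or above the lower quartile of the members' CPM, Control replicate 1 was lowest for 66.9% and CELF6-OE replicate 2 for 44.2%. The median difference between CELF6-OE replicates 2 and 1 was −0.16 on the log2 scale for the members and 0.002 for all genes. Cytosolic ribosomal protein genes, which are also short and abundant, had the same order, with CELF6-OE replicate 2 lowest for 70 of 75 and Control replicate 1 lowest for 90.7%. The difference between Control replicates 3 and 1 went with GC content, with a Pearson r of 0.60 over the 79 members and 0.54 over all genes with a GC value, where genes are not independent replicates and share these libraries. The part of these differences in the comparison of the groups was not tested, and the counts called and the medians of the complexes are given with and without the libraries that moved them.

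Members were abundant mRNAs. Compared per length, as FPKM, 77 members were at 1 or more in Control, and 3 alternative cytochrome c oxidase isoforms (COX4I2, COX6B2 and COX8C), a second NDUFA7 identifier and both retrocopies were below. The median Control level was 74.2 FPKM in complex I, 44.9 in complex II, 86.9 in complex III, 204 in complex IV and 73.8 in complex V. Complex IV held the highest median, and its members ran from 47.9 FPKM (COX7A2L) to 606 (COX6A1). The highest member of all was ATP5B, the catalytic beta subunit of complex V, at 607 FPKM, and the highest of complexes I to III were NDUFS5 at 321, SDHB at 96.7 and UQCRH at 356. FPKM depends on the transcript length that the authors used, which was over 2 times the canonical GENCODE v44 transcript for 23 members and 10.8 times for SDHC. With canonical lengths the medians became 109, 78.8, 109, 445 and 162 RPKM for complexes I to V, and complex IV was again the highest.

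**Figure D1:**
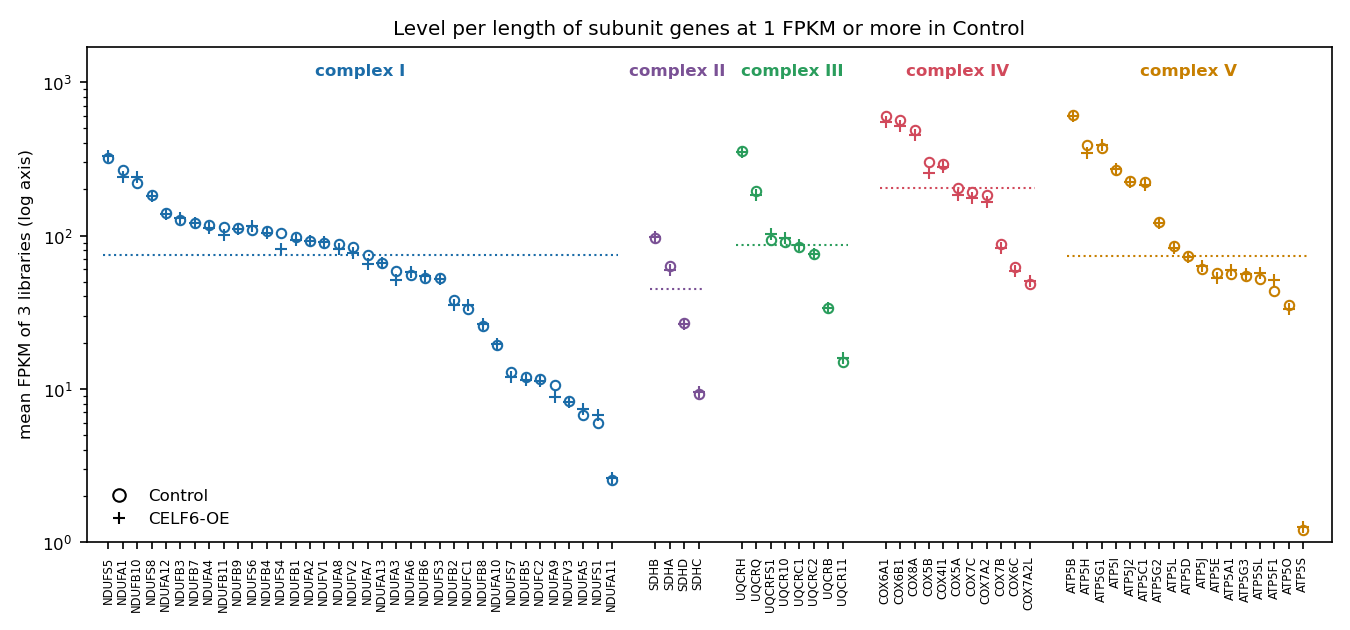
Mean FPKM over 3 libraries (log axis) of 76 of the 77 members at 1 FPKM or more in Control, ordered by level within each complex, with circles for Control, crosses for CELF6-OE and dotted lines for the Control median of each complex. Crosses and circles nearly coincide for most genes, and the complex IV median of 204 FPKM lies above the other four.

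Of the 83 members, 79 had enough reads to be tested (37, 4, 9, 11 and 18 for complexes I to V). At an adjusted p under 0.05, 4 of the 79 were called (5.06%), 3 lower and 1 higher in CELF6-OE, while 18% of the 15847 genes tested were called, 11.5% lower and 6.47% higher. Among the 2242 genes at or above the lower quartile of the members' CPM the share called was 27.2%. Called were NDUFS4 and NDUFA9 of complex I and COX5B of complex IV, which were down-regulated, and ATP5F1 of complex V, which was up-regulated. At the threshold of the study's methods, an unadjusted p under 0.01 and a 1.5-fold change, no member was called in edgeR's quasi-likelihood test, against 7.27% of all genes. At an unadjusted p under 0.05 there were 15 members (19.0%, against 32.7% of all genes). At an adjusted p under 0.05 limma-voom called 5 members (6.33%, against 18.1% of all genes) and DESeq2 called 4 (5.06%, against 16.2%). The count turned on single libraries, and the count over all genes moved with it. Without Control replicate 1 it was 20 (17 lower, 3 higher; 25.3%, against 26.6% of all genes in that fit). It was 1 (NDUFS4; 1.27%) without CELF6-OE replicate 2 or without Control replicate 2, where 8.32% and 8.2% of all genes were called. After a correction for transcript length and GC content it was 20 (25.3%, against 28.5% of all genes), so that in these fits the members' share lay close to or below that of all genes. Genes below 1 FPKM in every library had no length and were left uncorrected. The correction thus reached at most 11819 of the 15847 genes tested and 78 of the 79 members.

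The fold changes of most members tested lay in a narrow range. The 95% interval of the fold change lay within 1.5-fold in both directions for 77 of 79 members (97.5%), against 62.9% of all genes tested and 91% of genes at or above the lower quartile of the members' CPM. The exceptions were the retrocopies UQCRHL and ATP5EP2, which had the fewest reads among the members tested. The median log2 fold change was −0.04 over the members, 97% of Control, and 0.01 over all genes. The members' median was −0.01 without CELF6-OE replicate 2 and −0.08 without Control replicate 1. Fitted values were below 0 for 54 members and above for 25. The 3 values of each group did not overlap for 17 members (21.5%), 14 of them lower and 3 higher, against 37.9% of all genes (20% lower and 17.9% higher).

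**Figure D2:**
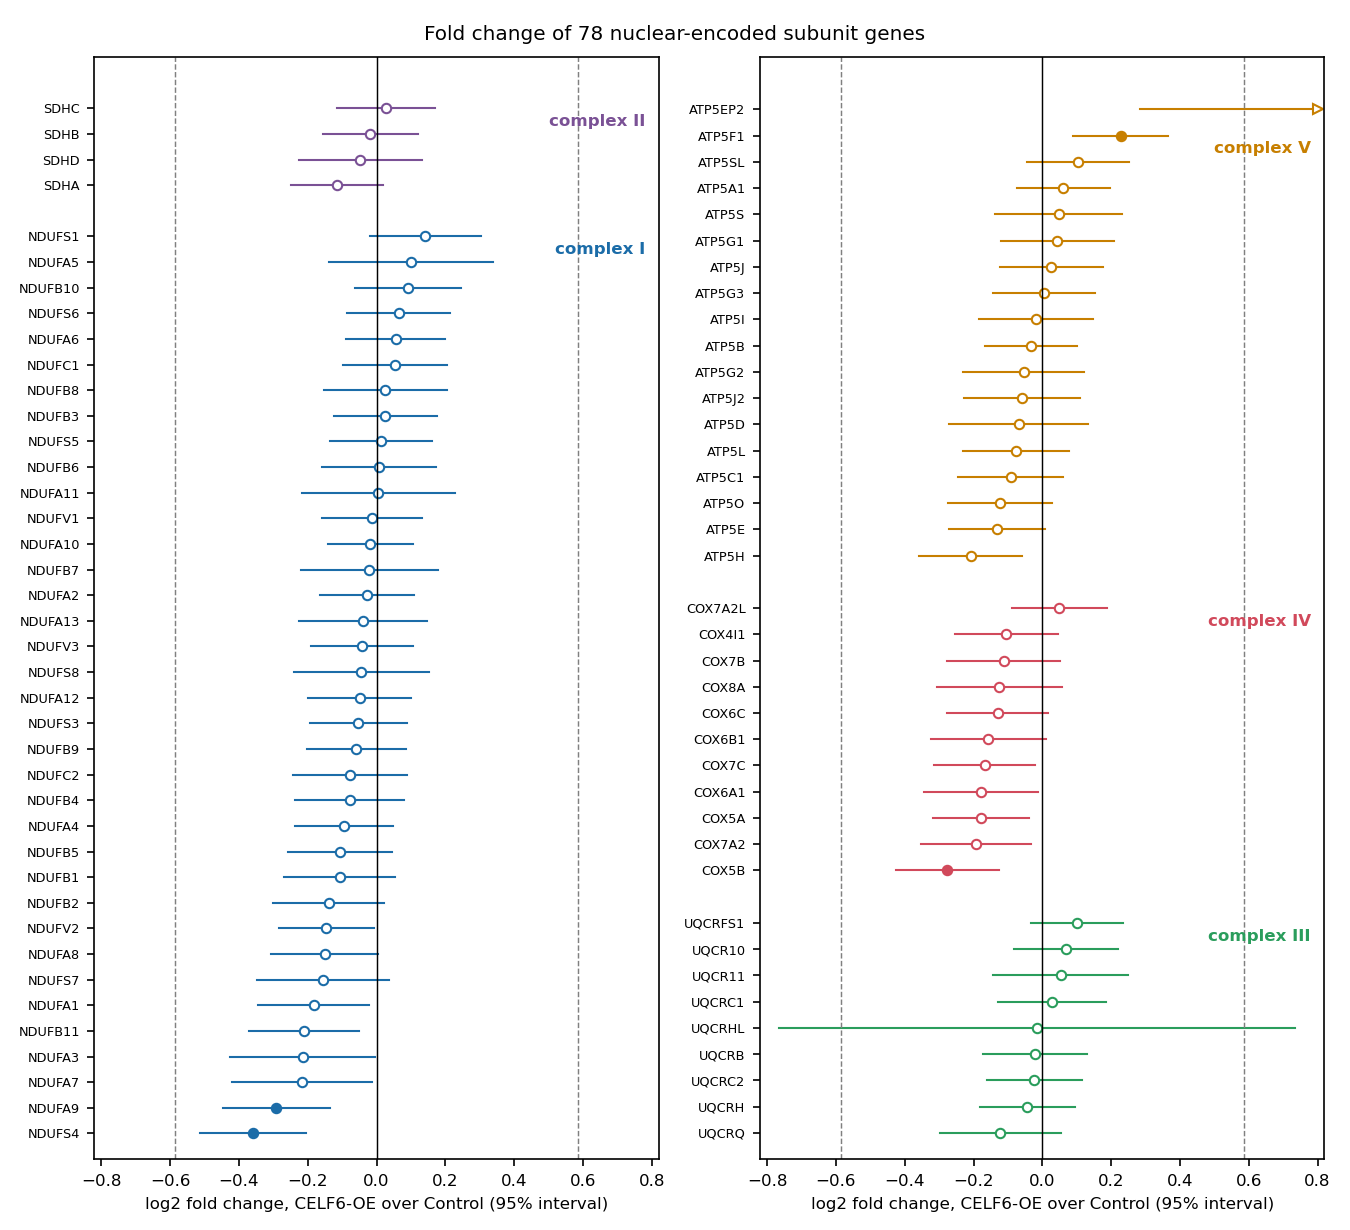
Log2 fold change of CELF6-OE over Control with its 95% interval for 78 of the 79 members tested, grouped by complex and ordered within each, with filled circles for an adjusted p under 0.05 and dashed lines at 1.5-fold. The intervals of 76 of them stay between the dashed lines, 10 of the 11 complex IV genes lie left of 0, and ATP5EP2 (log2 fold change 1.11) is drawn at the right edge.

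The sequences around the starts of the 4 called genes are shown because the promoters of this gene family share known motifs. Each line is 150 bases before and 30 after the RefSeq start on the plus strand of GRCh38.p14, 5′ to 3′, with capitals for matches to NRF1 (GCGC, 1 base of any kind, then TGCGC), ETS/GABP (CCGGAAG) or YY1 (AAGATGGCG) on either strand.
NDUFA9, chr12:4648964-4649143: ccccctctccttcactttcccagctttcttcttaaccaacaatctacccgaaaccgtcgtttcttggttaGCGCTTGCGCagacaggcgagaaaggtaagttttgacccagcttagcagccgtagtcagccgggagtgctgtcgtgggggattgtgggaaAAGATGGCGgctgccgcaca
NDUFS4, chr5:53560489-53560668: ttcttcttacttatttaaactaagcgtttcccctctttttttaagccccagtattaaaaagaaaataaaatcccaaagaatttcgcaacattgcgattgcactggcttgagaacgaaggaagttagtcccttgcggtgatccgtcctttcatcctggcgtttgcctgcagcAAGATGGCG
COX5B, chr2:97645912-97646091: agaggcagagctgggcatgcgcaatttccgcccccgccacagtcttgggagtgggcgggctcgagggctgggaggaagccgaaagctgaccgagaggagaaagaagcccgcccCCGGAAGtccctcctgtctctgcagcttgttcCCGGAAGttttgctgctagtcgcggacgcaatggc
ATP5F1, chr1:111449314-111449493: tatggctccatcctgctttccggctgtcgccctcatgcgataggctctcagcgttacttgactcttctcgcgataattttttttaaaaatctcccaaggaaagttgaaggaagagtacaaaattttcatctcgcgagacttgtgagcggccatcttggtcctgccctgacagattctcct
NDUFA9 held an NRF1 and a YY1 match, NDUFS4 a YY1 match, COX5B a pair of ETS matches and ATP5F1 none. In the 300-base RefSeq promoters, found for 65 members, the NRF1 letters were in 16 (24.6%, against 6.28% of 27305 promoters), the ETS letters in 19 (29.2%, against 10.7%) and the YY1 letters in 8 (12.3%, against 1.85%). At least 1 of the 3 motifs, which may overlap, was in 36 (55.4%, against 17%). A match is a description of these letters and not of binding.

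Complex I, the NADH dehydrogenase, had 2 of 37 members called, both lower (5.41%, against 18% of all genes, 11.5% lower). Its median log2 fold change was −0.04 (11 fitted above 0 and 26 below). This median was −0.01 without CELF6-OE replicate 2, −0.01 without Control replicate 3, −0.08 without CELF6-OE replicate 1 and −0.09 without Control replicate 1. NDUFS4 (ENSG00000164258), an accessory subunit of the electron-input module whose loss is a known cause of Leigh syndrome, lies at chr5:53560633-53683338. Its CPM were 58.0, 54.1 and 60.0 in CELF6-OE and 74.9, 77.1 and 68.8 in Control, so that the groups were well apart. Its log2 fold change was −0.36 ± 0.07 (SE, n = 3 per group; 77.9% of Control; edgeR adjusted p = 0.0052), and it was the only member called under all 19 alternatives, with an adjusted p of at most 0.0475.

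NDUFA9 (ENSG00000139180), an accessory subunit that binds NADPH near the ubiquinone site, lies at chr12:4649095-4694317. It had 81.6, 71.7 and 82.7 CPM in CELF6-OE and 92.7, 96.9 and 99.3 in Control, without overlap. The log2 fold change was −0.29 ± 0.07 (SE, n = 3 per group; edgeR adjusted p = 0.0167), and it was called in 17 of 19 alternatives, with a largest adjusted p of 0.0874. A protein-coding readthrough row, ENSG00000272921, shares 7.25% of the canonical NDUFA9 transcript and held 38.4% of the reads of both rows. It had 1846, 1676 and 1827 reads in CELF6-OE and 2150, 2197 and 2121 in Control. With both rows summed, the log2 fold change was −0.26 ± 0.07 (SE, n = 3 per group; edgeR adjusted p = 0.0261). This sum may include reads from outside NDUFA9.

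The most abundant complex I mRNAs per length were not called. NDUFS5, an accessory subunit of the intermembrane space side, had 199.8, 171.9 and 189.7 CPM in CELF6-OE and 181.3, 185.9 and 189.6 in Control, and the groups overlapped (log2 fold change 0.01, edgeR adjusted p = 0.921). NDUFA1, an X-linked membrane-arm subunit, had 206.3, 171.3 and 193.7 CPM in CELF6-OE and 209.5, 221.4 and 217.7 in Control. All 3 CELF6-OE values of NDUFA1 lay below Control, with a log2 fold change of −0.18 ± 0.07 (SE, n = 3 per group; edgeR adjusted p = 0.109). The other non-overlapping members of complex I were NDUFB11 (log2 fold change −0.21, edgeR adjusted p = 0.0665) and NDUFV2 of the flavoprotein fragment (−0.15, edgeR adjusted p = 0.130), both lower in the CELF6-OE libraries and neither called. Among the core subunits of the matrix arm, NDUFS1, NDUFS3, NDUFS7, NDUFS8, NDUFV1 and NDUFV2 were not called, and their fitted log2 fold changes ran from −0.15 (NDUFS7) to 0.14 (NDUFS1).

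NDUFA3, another membrane-arm subunit, was among the members in which Control replicate 1 stood apart from the other Control libraries. It had 90.2, 76.6 and 86.7 CPM in CELF6-OE and 84.5, 100.3 and 109 in Control, and Control replicate 1 lay inside the CELF6-OE range (log2 fold change −0.21, edgeR adjusted p = 0.145).

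**Figure D3:**
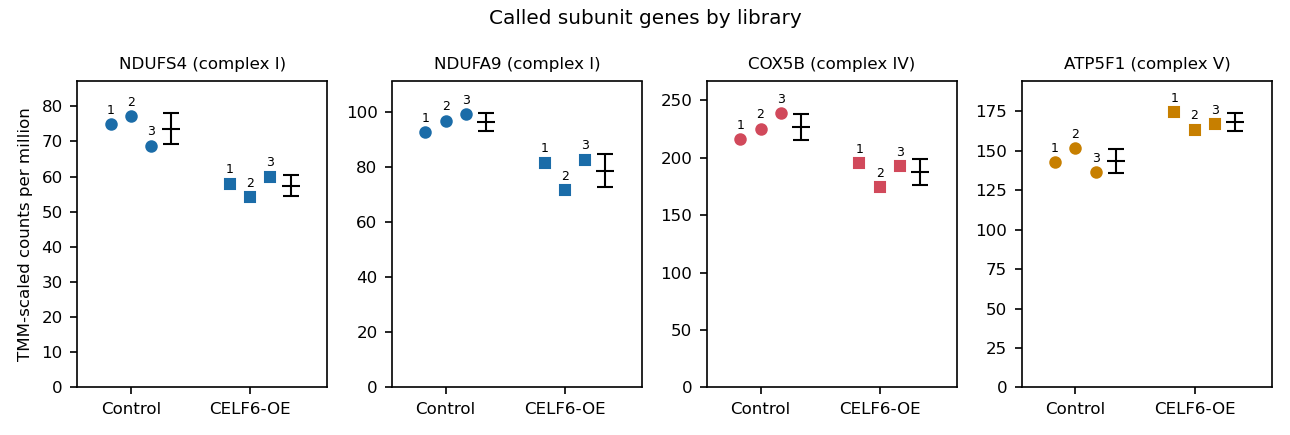
TMM-scaled CPM of the 4 called members in each library, with the replicate number above each point and the mean ± SD of 3 libraries in black beside them, on axes that start at 0. NDUFS4, NDUFA9 and COX5B lie lower in all 3 CELF6-OE libraries than in any Control library, and ATP5F1 lies higher.

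Complex II, succinate dehydrogenase, is also an enzyme of the tricarboxylic acid cycle and is encoded wholly in the nucleus. None of its 4 subunits was called at an adjusted p under 0.05 or had an unadjusted p under 0.05 in edgeR's quasi-likelihood test. Of all genes, 18% and 32.7% did. SDHA, the flavoprotein, had 148.9, 144.6 and 147.7 CPM in CELF6-OE and 150.8, 159.6 and 167.5 in Control. It was the only complex II gene whose groups did not overlap, with a log2 fold change of −0.12 ± 0.06 (SE, n = 3 per group; edgeR adjusted p = 0.217). SDHB, the iron-sulphur subunit, had 119.8, 110.8 and 117.9 CPM in CELF6-OE and 112.0, 123.0 and 117.8 in Control, an overlap in both directions. The membrane anchors SDHC and SDHD had log2 fold changes of 0.03 and −0.05. The median log2 fold change of the 4 was −0.03, and ran from −0.06 (without CELF6-OE replicate 3) to 0.001 (without CELF6-OE replicate 2). All 4 intervals together lay between 84.1% and 112% of Control.

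Complex III, the cytochrome bc1 complex, had no member called of 9 (18% of all genes were called), and its median log2 fold change was −0.02. It ran from −0.04 without Control replicate 3 to 0.07 without CELF6-OE replicate 2, and was also above 0 (0.006) without Control replicate 2. UQCRH, the hinge protein, had 226.1, 204.7 and 229.3 CPM in CELF6-OE and 225.7, 227.0 and 227.4 in Control, and differed from Control mainly in replicate 2. UQCRQ, a small membrane subunit, had 212.5, 175.3 and 193.3 CPM in CELF6-OE and 200.2, 205.8 and 226.8 in Control, with overlap (log2 fold change −0.12, edgeR adjusted p = 0.314). UQCRFS1, the Rieske iron-sulphur protein, was the only member whose groups did not overlap, with 383.4, 361.2 and 357.6 CPM in CELF6-OE and 333.6, 339.8 and 354.6 in Control (log2 fold change 0.10, edgeR adjusted p = 0.276). The core proteins UQCRC1 and UQCRC2 had log2 fold changes of 0.03 and −0.02.

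Complex IV had the lowest median log2 fold change of the 5 complexes, −0.16, which is 89.7% of Control, with 10 of 11 members fitted below 0, against 48.4% of all genes. The exception was COX7A2L, at 0.05. The median was −0.11 without CELF6-OE replicate 2 and −0.21 without Control replicate 1. By library, in replicate order, the 11 genes had a median log2 deviation of −0.001, −0.18 and −0.05 under CELF6-OE, against −0.009, 0.10 and 0.13 under Control. CELF6-OE replicate 1 thus lay above Control replicate 1, and the groups overlapped at the level of the complex. A difference between complexes was not tested.

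**Figure D4:**
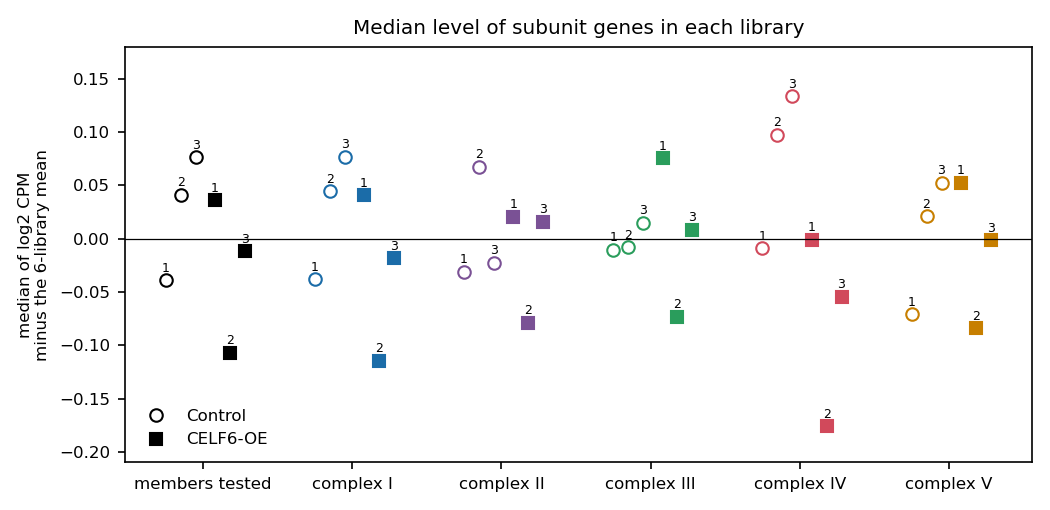
Median over the members of each complex of the log2 CPM in a library minus its mean over the 6 libraries, with circles for Control, squares for CELF6-OE and the replicate number above each point. The leftmost group holds the 79 members tested. CELF6-OE replicate 2 is the lowest square in every complex, and in complex IV the values run from −0.18 (CELF6-OE replicate 2) to 0.13 (Control replicate 3).

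COX5B (ENSG00000135940), a zinc-binding nuclear subunit of the matrix side, at chr2:97646062-97648383, was the only complex IV member called (9.09%, against 18% of all genes). It had 195.4, 174.4 and 192.5 CPM in CELF6-OE and 216.2, 225.5 and 239.1 in Control, with no overlap. Its log2 fold change was −0.28 ± 0.07 (SE, n = 3 per group; 82.6% of Control; edgeR adjusted p = 0.0177), and it was called in 17 of 19 alternatives, with a largest adjusted p of 0.0945. For 4 more members all CELF6-OE values lay below all Control values, which makes 5 of 11 with COX5B (45.5%, against 20% of all genes). These were COX5A (log2 fold change −0.18, edgeR adjusted p = 0.0754), COX7A2 (−0.19, 0.0905), COX7C (−0.17, 0.108) and COX6C (−0.13, 0.204). Without Control replicate 1 there were 7 complex IV members called, all lower (63.6%, against 26.6% of all genes in that fit). With the length and GC correction 7 were called as well (63.6%, against 28.5% of all genes). These shares of all genes count both directions and all levels. In the main fit, 27.2% of genes at or above the lower quartile of the members' CPM were called. Such a share is not given for these fits. Without CELF6-OE replicate 2 or Control replicate 2 there were 0 by edgeR's quasi-likelihood test, against 8.32% and 8.2% of all genes.

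Several complex IV subunits have isoforms that are used in different tissues, and the reads of A549 cells lay on the common ones. COX4I1 had 530.7, 490.2 and 523.6 CPM in CELF6-OE and 516.1, 559.1 and 585.1 in Control, with overlap, while COX4I2, the lung and hypoxia isoform, had 1 read in all 6 libraries. COX6B1 had 533.3, 470.8 and 509.0 CPM in CELF6-OE and 512.4, 572.1 and 603.2 in Control (log2 fold change −0.16, edgeR adjusted p = 0.176). Its testis isoform COX6B2 had 9, 4 and 1 reads in CELF6-OE and 7, 8 and 7 in Control, below the filter. In each of these pairs nearly all reads belonged to the common isoform. COX6A1, the highest complex IV member per length, had 343.5, 298.9 and 329.2 CPM in CELF6-OE and 336.3, 372.7 and 389.6 in Control (log2 fold change −0.18, edgeR adjusted p = 0.129). COX8A had 254.6, 224.6 and 236.0 CPM in CELF6-OE and 232.9, 259.5 and 287.6 in Control, with overlap, and its testis isoform COX8C had at most 2 reads in any library. COX7B had 226.2, 190.0 and 220.0 CPM in CELF6-OE and 218.8, 238.7 and 230.5 in Control, with overlap (log2 fold change −0.11, edgeR adjusted p = 0.324). In COX4I1, COX6A1, COX6B1, COX7B and COX8A alike, Control replicate 1 lay inside the CELF6-OE range and the other Control libraries lay above it. In COX7A2, with 195.2, 165.0 and 187.7 CPM in CELF6-OE and 202.4, 205.9 and 217.6 in Control, it lay above the range as well.

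Complex V had 1 of 18 members called (5.56%, against 18% of all genes). Its median log2 fold change was −0.03, with 8 fitted above 0 and 10 below. ATP5S (0.05) and ATP5SL (0.10), which are not subunits proper, and the retrocopy ATP5EP2 (1.11) are among those above 0. No median without them is given. The sign of the complex V median turned with single libraries: it was 0.02 without Control replicate 3 and 0.01 without CELF6-OE replicate 2, and −0.07 without Control replicate 1 and −0.06 without CELF6-OE replicate 1. ATP5F1 (ENSG00000116459, current symbol ATP5PB), subunit b of the peripheral stalk, lies at chr1:111448864-111462773. It had 174.4, 163.3 and 166.9 CPM in CELF6-OE and 142.9, 151.6 and 136.4 in Control, so that it was higher in every CELF6-OE library. The log2 fold change was 0.23 ± 0.06 (SE, n = 3 per group; 117% of Control; edgeR adjusted p = 0.0299). It was called in 14 of 19 alternatives, with a largest adjusted p of 0.132, and was not called with the replicate number as a block.

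ATP5H (ATP5PD), subunit d of the same stalk, went the other way. It had 234.0, 203.5 and 230.7 CPM in CELF6-OE and 252.0, 261.4 and 258.8 in Control, with no overlap (log2 fold change −0.21 ± 0.07 SE, n = 3 per group; edgeR adjusted p = 0.0544), and was called in 6 of 19 alternatives. The other stalk subunits ATP5J (F6) and ATP5O (OSCP) had log2 fold changes of 0.03 and −0.12. Of the catalytic head, ATP5B had 1189, 1110 and 1155 CPM in CELF6-OE and 1152, 1188 and 1194 in Control, with overlap, and the alpha, gamma and delta subunits ATP5A1, ATP5C1 and ATP5D had log2 fold changes of 0.06, −0.09 and −0.07. ATP5E, the epsilon subunit, was lower in all 3 CELF6-OE libraries (log2 fold change −0.13, edgeR adjusted p = 0.177).

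ATP5G1, ATP5G2 and ATP5G3 encode the same mature c subunit of the rotor ring and took 30.3%, 32.7% and 37.0% of their summed CPM in Control. The sum was 946, 835 and 865 CPM in CELF6-OE and 829, 872 and 950 in Control, or 882 ± 57.5 against 884 ± 61.5 (SD, n = 3 per group), a difference far below the spread. The retrocopy ATP5EP2 had 26, 17 and 17 reads in CELF6-OE and 11, 13 and 5 in Control. Its log2 fold change was 1.11 ± 0.38 (SE, n = 3 per group; edgeR adjusted p = 0.0644), the only member value beyond 1.5-fold, and reads of a retrocopy and of its parent ATP5E can be hard to assign.

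For 9 members, 10 protein-coding readthrough rows shared exonic bases, and in 4 cases that row held most reads. The readthrough row took 88.0% of the summed reads for NDUFA11, 83.0% for NDUFB8, 71.1% for UQCR11 and 69.0% for ATP5O, and 36.9% for ATP5J2. In the same order, its exons covered 68.2%, 72.0%, 18.1%, 63.8% and 33.2% of the member's canonical transcript. Some of its reads may lie outside the member, so a summed value may also measure other exons. How reads in shared exons were assigned is not given in the sources used here, so the rows may divide these reads or both count them, and the shares and sums hold for the rows as deposited. With the rows summed, the log2 fold change of UQCR11 went from 0.05 to −0.10 and that of NDUFA11 from 0.01 to −0.10, and none of the 5 was called (edgeR adjusted p from 0.247 to 0.826). The reads of NDUFA7 stood on a further identifier, ENSG00000167774, which has no symbol of its own in GENCODE v44. The identifier named NDUFA7 there, ENSG00000267855, had at most 2 reads in any library. ENSG00000167774 was not counted among the readthrough rows.

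**Figure D5:**
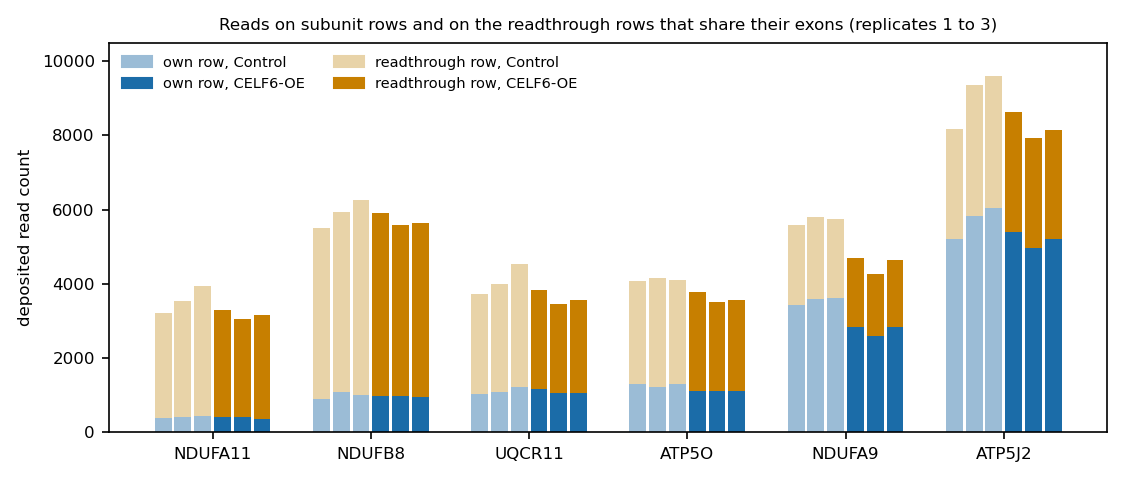
Deposited read counts of 6 members (blue) with the counts of the readthrough row that shares their exons stacked on top (ochre), by replicate, with Control light and CELF6-OE dark. Most of each bar is readthrough row for NDUFA11, NDUFB8, UQCR11 and ATP5O, and less than the member's own row for NDUFA9 and ATP5J2.

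Other genes of the pathway were looked up as lists. Of 7 genes outside the symbol rule (9 were looked up), 0 were called and 0 had an unadjusted p under 0.05 in edgeR's quasi-likelihood test. They included the subunits NDUFAB1 and CYC1, and cytochrome c (CYCS), which carries electrons and is not a subunit of a complex. Of 54 assembly factors 5 were called, 4 higher and 1 lower, with a median log2 fold change of 0.05. LYRM7, a chaperone of the Rieske protein UQCRFS1, had 13.7, 13.1 and 13.6 CPM in CELF6-OE and 9.58, 9.06 and 8.12 in Control (log2 fold change 0.59 ± 0.10 SE, n = 3 per group; edgeR adjusted p = 0.00198). COX11, a copper chaperone of complex IV, had 64.2, 59.5 and 63.1 CPM in CELF6-OE and 52.7, 45.2 and 41.7 in Control (0.42, edgeR adjusted p = 0.00729). NDUFAF6 and TMEM126B, both assembly factors of complex I, were also higher in every CELF6-OE library. NDUFAF6 had 13.2, 13.4 and 12.97 CPM in CELF6-OE and 10.1, 10.7 and 9.90 in Control (0.37, edgeR adjusted p = 0.0163). TMEM126B had 38.7, 37.1 and 39.6 CPM in CELF6-OE and 34.6, 30.7 and 28.5 in Control (0.30, edgeR adjusted p = 0.0290). SCO2, another copper chaperone of complex IV, was the assembly factor that fell (−0.33, edgeR adjusted p = 0.0298).

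Among 13 proteins of the mitochondrial genome 4 were called, all higher. The neighbours MT-ATP8, MT-ATP6 and MT-CO3, which lie on 1 stretch of the polycistronic transcript, had log2 fold changes of 0.57, 0.50 and 0.44, with edgeR adjusted p of 0.000829, 0.00235 and 0.00354. MT-ATP8 had 1698, 2036 and 1703 CPM in CELF6-OE and 1166, 1220 and 1284 in Control. MT-ATP6 had 6047, 6984 and 6023 CPM in CELF6-OE and 4140, 4421 and 4880 in Control, and MT-CO3 had 11988, 12022 and 11174 against 8016, 8478 and 9486. None of the 3 overlapped between groups. MT-ND6 had 102, 255 and 233 CPM in CELF6-OE and 95.4, 83.2 and 92.9 in Control, with CELF6-OE replicate 1 close to Control (log2 fold change 1.12, edgeR adjusted p = 0.0109). The other complex IV genes of that genome, MT-CO1 and MT-CO2, had log2 fold changes of −0.15 and −0.13 and were not called.

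Of 17 genes looked up as regulators of mitochondrial biogenesis 3 were called: NRF1 itself (log2 fold change 0.26) and the transcription factor TFB2M (0.32) were higher, and NFE2L1 (−0.23) was lower, with edgeR adjusted p of 0.0472, 0.0235 and 0.0189. NFE2L1 is a separate gene from NRF1, and these data do not show that it has a role in mitochondrial biogenesis. NRF1 had 16.9, 16.9 and 17.1 CPM in CELF6-OE and 13.6, 14.4 and 14.5 in Control. TFB2M had 35.1, 37.4 and 35.1 CPM in CELF6-OE and 30.6, 30.04 and 25.4 in Control, and NFE2L1 had 165, 168 and 173 against 194, 197 and 204. The values of all 3 lay apart between the groups. Of 18 tricarboxylic acid cycle enzymes 2 were called, CS (0.24) higher and OGDH (−0.31) lower, with edgeR adjusted p of 0.0218 and 0.00804. CS, citrate synthase, had 265, 272 and 259.6 CPM in CELF6-OE and 214, 227 and 236 in Control. OGDH, of the oxoglutarate dehydrogenase complex, had 77.5, 78.1 and 80.5 CPM in CELF6-OE and 91.8, 97.0 and 103 in Control.

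Mitochondrial ribosomal protein genes had 9 of 78 called, 7 higher and 2 lower, and the smallest p were those of MRPL3 (0.29), MRPS10 (0.35), MRPL17 (−0.32) and MRPS34 (0.31). MRPL3 had 129.6, 129.9 and 131 CPM in CELF6-OE and 108, 110.2 and 101 in Control, and MRPS10 had 70.1, 64.7 and 63.0 against 54.7, 52.0 and 48.1. MRPL17 had 170.3, 159 and 179 CPM in CELF6-OE and 193, 209 and 229 in Control, and MRPS34 had 234, 217 and 214 against 157, 183 and 197. The groups did not overlap for any of these 4. Cytosolic ribosomal protein genes had 7 of 75 called, 6 higher and 1 lower, and the smallest p were those of RPS27L (−0.37), RPL5 (0.29), RPL23 (0.29) and RPL7 (0.27). RPS27L had 232, 209.6 and 239 CPM in CELF6-OE and 288, 302 and 291 in Control, and RPL5 had 855, 804 and 794 against 665, 680 and 656. RPL23 had 1720, 1564 and 1628 CPM in CELF6-OE and 1293, 1343 and 1385 in Control, and RPL7 had 1157, 1067 and 1062 against 929, 922 and 878. These 4 were also apart between the groups. Except for the mitochondrial genome (30.8%), the called share of each list lay at or below the 18% of all genes. Among genes at or above the lower quartile of the members' CPM, the called share was 27.2%.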

How the data were processed

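RNA-seq was made from polyadenylated, stranded libraries of 3 CELF6-OE and 3 Control cultures, with groups and replicate numbers from the sample labels. Per the study's methods, the authors used FASTX-Toolkit for trimming and TopHat2 for alignment to GRCh38 (the submitters' processing notes also name edgeR) and counted uniquely placed reads per gene. The tool that counted, whether it used strand and the annotation are not given in the sources used here. They deposited read counts, which are not normalized, and FPKM, which scales fragments by transcript length and library. No value column was left unused (0).

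From the deposited counts, edgeR 4.0.16 (R 4.3.3) gave TMM factors, a quasi-likelihood test without covariates on the 15847 genes kept by filterByExpr (minimum count 10), and Benjamini-Hochberg adjustment over all of them. Calls used an adjusted p under 0.05, and a second rule used p under 0.01 with a 1.5-fold change. Log2 fold changes are CELF6-OE minus Control with a prior count of 0.125, and intervals are 95% intervals from the fit. The p-values set the difference between the groups against the spread between these cultures. The estimate of that spread for a gene also draws on the other genes tested. The deposited FPKM served for levels per length. limma 3.58.1 (voom), DESeq2 1.42.0, other scalings, filters, corrections for length and GC content, a replicate block and leaving out each library were alternatives. Gene positions and lengths come from GENCODE v44, in which 29032 of the 29889 identifiers were found, and promoters from RefSeq (GRCh38.p14). Replicate libraries differed by more than sampling noise (chi-square per degree of freedom 7.67 to 29.3). The procedure was tested on simulated counts.

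Values per library are given for called members, the 2 members with the highest FPKM in each complex, the isoform pairs of complex IV and, of the other lists, up to 4 called genes with the smallest p. Further members that were close to the threshold or did not overlap, NDUFA3, UQCRFS1, the c subunit genes, ATP5EP2, the readthrough rows, SCO2, MT-CO1 and MT-CO2 were chosen after their values were seen. The members and the gene lists were chosen with earlier results of these data known. The values of 1 member are not reported here, and it is counted in the totals only.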

Additional observations from a re-analysis of the deposited data

How the results depend on the processing

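The count of 4 members called at an adjusted p under 0.05 was 8 when all genes with a count were tested (9.64%, against 11.8% of all genes), 7 with a length correction (8.86%, against 19.3%) and 20 with a length and GC correction, and it ran from 1 to 20 when 1 library was left out. At p under 0.01 and 1.5-fold the count of 0 became 1 (ATP5EP2) when all genes with a count were tested, and stayed at 0 without any 1 library. The 30 genes called over the other lists became 65 with the length and GC correction, where the share of all genes called went from 18% to 28.5%. When 1 library was left out they ran from 10 to 54, and the share of all genes ran from 8.2% to 26.6%. With the replicate number as a block, 3 members (3.8%, against 14.5% of all genes) and 19 genes of the other lists were called. The 3 members were NDUFS4, NDUFA9 and COX5B, all lower. The labels do not say whether same-numbered cultures were handled as pairs. The correlations of same-numbered deviations were −0.01, −0.02 and −0.07. They show no shared shift, but with 3 libraries per group they cannot decide on pairing. The median log2 fold change of the members lay between −0.081 and −0.0059 under all alternatives, and that of complex IV was −0.14 with NDUFA4 counted there. With deposited FPKM in place of CPM, 21 members did not overlap in either direction. The share of all genes by FPKM is not given here, so this count has no background beside it. Members near 0 changed sign. With library size alone the log2 fold change was 0.0049 for ATP5B and 0.020 for SDHB, which had 0.0031 with the length correction. With the length and GC correction it was −0.0089 for COX7A2L, 0.021 for NDUFA13 and −0.0084 for NDUFS5, which had −0.00033 with a minimum of 100 counts. NDUFA11 had −0.0016 with all genes, −0.0069 with a minimum of 100 counts and −0.016 with the length correction. With readthrough rows added, a choice made after seeing the data, NDUFA11 had −0.098 and UQCR11 −0.099. When 1 library was left out, the range was −0.078 to 0.0028 for UQCRH, −0.0096 to 0.14 for UQCR11, −0.13 to 0.0012 for SDHD, −0.11 to 0.046 for NDUFA13, −0.0495 to 0.077 for NDUFB8, −0.060 to 0.017 for SDHB, −0.036 to 0.066 for NDUFS5 and −0.053 to 0.060 for NDUFA11. The causes were not tested. The read depth limits UQCRHL and ATP5EP2, and for the members that did not pass the filter no fold change is given.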
